A study of Homo sapiens with 18 samples.

Results

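The nuclear factor I genes NFIA, NFIB, NFIC and NFIX were followed in SH-SY5Y cells after an acute exposure to cocaine. The array holds 24 probe sets annotated to 1 of these 4 genes, of 54675 on the array, and every one of them was taken. They are 4 of 19775 genes named by a probe set with a single symbol. NFIA has 7 of them, NFIB 9, NFIC 4 and NFIX 4. The family was chosen because NFIA probe set 224975_at was among the larger decreases from 0 to 5 μM cocaine at 6 h, so the values and counts of that contrast are given as a description, and nothing is read from them. SH-SY5Y is a human neuroblastoma line, and all 18 arrays are of cells kept in 10 μM retinoic acid for 7 days and then without it for 24 h. The cells received 0, 1 or 5 μM cocaine for 30 min, the medium was replaced, and RNA was taken 6 or 24 h later. Each of the 6 combinations of dose and time has 3 arrays, and each array carries RNA pooled from 3 dishes, of 9 dishes per condition. The study asked which genes respond to cocaine in a dopaminergic neuron-like cell, and the model is 1 tumour line. On the 5 μM arrays the labels repeat the wording of the untreated controls beside the dose, and the dose was followed.

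Nuclear factor I proteins are transcription factors that bind DNA as homodimers or heterodimers, at a palindrome whose arms share the core TTGGC. The members have a closely related DNA-binding domain and differ more in the part that activates or represses transcription. In the developing nervous system they are known for starting the production of glia, for the maturation of neural progenitors and for the outgrowth and migration of neurons such as cerebellar granule cells. Loss of NFIA or NFIB disturbs the corpus callosum in mice. NFIC is best known for the formation of tooth roots, and NFIX for muscle development and the resting state of neural stem cells.

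Signals are on the log2 scale, as the authors computed them, and a probe set was tested at a time when its mean over the 9 arrays of that time exceeded log2(40), or 5.32. At 6 h 17 of the 24 probe sets passed, among 22455 in all, and at 24 h 18 passed, among 24307. All 4 genes were thus measured. For NFIA, 5 of 7 probe sets passed at both times, and 1557639_at and 1558101_at stayed at 3.64 to 5.16 on all 18 arrays. For NFIB, 6 probe sets passed at 6 h and 7 at 24 h, where 211466_at (4.73 to 6.20 over the 18 arrays) was added, while 233304_at and 233394_at were below at both times. All 4 NFIC probe sets passed. For NFIX, 227400_at and 228278_at passed, and 209807_s_at (4.63 to 5.51) and 229834_at (4.33 to 5.04) did not. The levels of different probe sets are not set against each other, because probes differ in how brightly they report.

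Markers of the cell states of the line were read beside these levels. Of 7 noradrenergic neuroblastoma markers with a probe set, PHOX2A, HAND2, GATA3, GATA2, ISL1 and DBH were above 5.32 on all 18 arrays, and TH, which encodes the enzyme that makes the dopamine precursor and has 1 probe set on the array, was above it on none (3.35 to 4.0). The paper assessed TH protein in the differentiated cells by western blot, and the RNA signal of 1 probe set is an unlike measure. Of 6 mesenchymal markers, VIM, FN1, SNAI2 and CD44 were above it on all arrays and PRRX1 and YAP1 on none. Of 6 astrocyte markers, which matter here because nuclear factor I is known from glia, ALDH1L1 and SLC1A2 were above it on all arrays, and GFAP, AQP4, S100B and SLC1A3 on none. At 6 h the summed log2 signal of the noradrenergic markers was 69.5 to 69.7 in untreated cells, 68.9 to 69.2 at 1 μM and 68.4 to 69.0 at 5 μM. That of the mesenchymal markers was 47.1 to 48.8, 48.2 to 49.2 and 48.8 to 49.3, and that of the astrocyte markers 28.5 to 28.6, 28.6 to 28.9 and 28.0 to 28.9. At 24 h the ranges for 0, 1 and 5 μM were 70.0 to 70.7, 69.8 to 70.7 and 70.4 to 71.2 for the noradrenergic markers. They were 50.0 to 51.3, 51.0 to 51.9 and 50.2 to 51.6 for the mesenchymal ones, and 31.0 to 31.2, 30.2 to 30.7 and 30.5 to 31.0 for the astrocyte ones. These sums include the markers that were above 5.32 on no array, 4 of the 6 for astrocytes. They are therefore not read as amounts of a cell type. In such bulk RNA, fewer cells of a type and less RNA per cell cannot be told apart.

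The 3 untreated arrays of 6 h differed from each other before any comparison. CYP26A1, a retinoic acid hydroxylase whose own gene responds to retinoic acid, had a log2 signal of 5.01, 10.69 and 10.99 on untreated arrays 1, 2 and 3, and of 4.95 to 5.61 on the 6 treated arrays. The log2 ratio of the 3′ to the 5′ probe set of ACTB, an indirect sign of RNA integrity, was 0.548, 1.12 and 0.894 on the same untreated arrays and 0.493 to 0.724 on the treated ones. The paper measured the integrity of the RNA directly, with a Bioanalyzer. It reports a mean and a lowest integrity number that are both high, without values for single arrays. At 24 h untreated array 3 stood out in CYP26A1 (9.55, against 4.92 to 6.31 on the other 8 arrays). It was also the highest there in CYP26B1 (11.03), DHRS3 (10.23) and RARB (9.66), further genes that respond to retinoic acid. DHRS3 was raised as well on untreated array 2 (9.01), 1 μM array 3 (8.84) and 5 μM array 3 (9.18), against 7.65 to 8.01 on the rest. The 6 h values against untreated cells are therefore also given without untreated arrays 2 and 3, a choice made after the data were seen, which leaves 1 untreated array that is assumed to vary like the other groups. With 1 untreated array left, only the sizes of the changes are given from that fit, and no call is read from it.

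NFIA, the member that drives the switch of neural progenitors to glial fate, showed this split at 6 h. Probe set 224975_at had log2 signals of 9.09, 9.55 and 9.83 on untreated arrays 1, 2 and 3, of 8.61, 8.82 and 8.91 at 1 μM, and of 8.70, 8.70 and 8.84 at 5 μM. All 6 treated arrays lay below all 3 untreated ones, and untreated array 1 was the nearest to them. Probe set 226806_s_at had 9.30, 9.96 and 10.19 in untreated cells, 8.99, 9.16 and 9.47 at 1 μM and 9.11, 9.20 and 9.38 at 5 μM, and there untreated array 1 lay within the range of the treated arrays. In 224970_at, the brightest NFIA probe set, untreated cells gave 9.54, 10.03 and 10.22, cells at 1 μM 9.59, 9.49 and 9.66, and cells at 5 μM 9.46, 9.59 and 9.70. Untreated array 1 thus sat among the treated arrays, and arrays 2 and 3 sat above them. The same order held for 224976_at (8.13, 8.46 and 8.85 untreated, 7.92 to 8.16 at 1 μM, 8.10 to 8.31 at 5 μM). In 229994_at untreated array 1, at 6.23, was the lowest of the 9 arrays, and arrays 2 and 3, at 6.88 and 7.02, were the highest. In all 5 NFIA probe sets untreated array 1 was the lowest of the 3 untreated arrays.

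**Figure D1:**
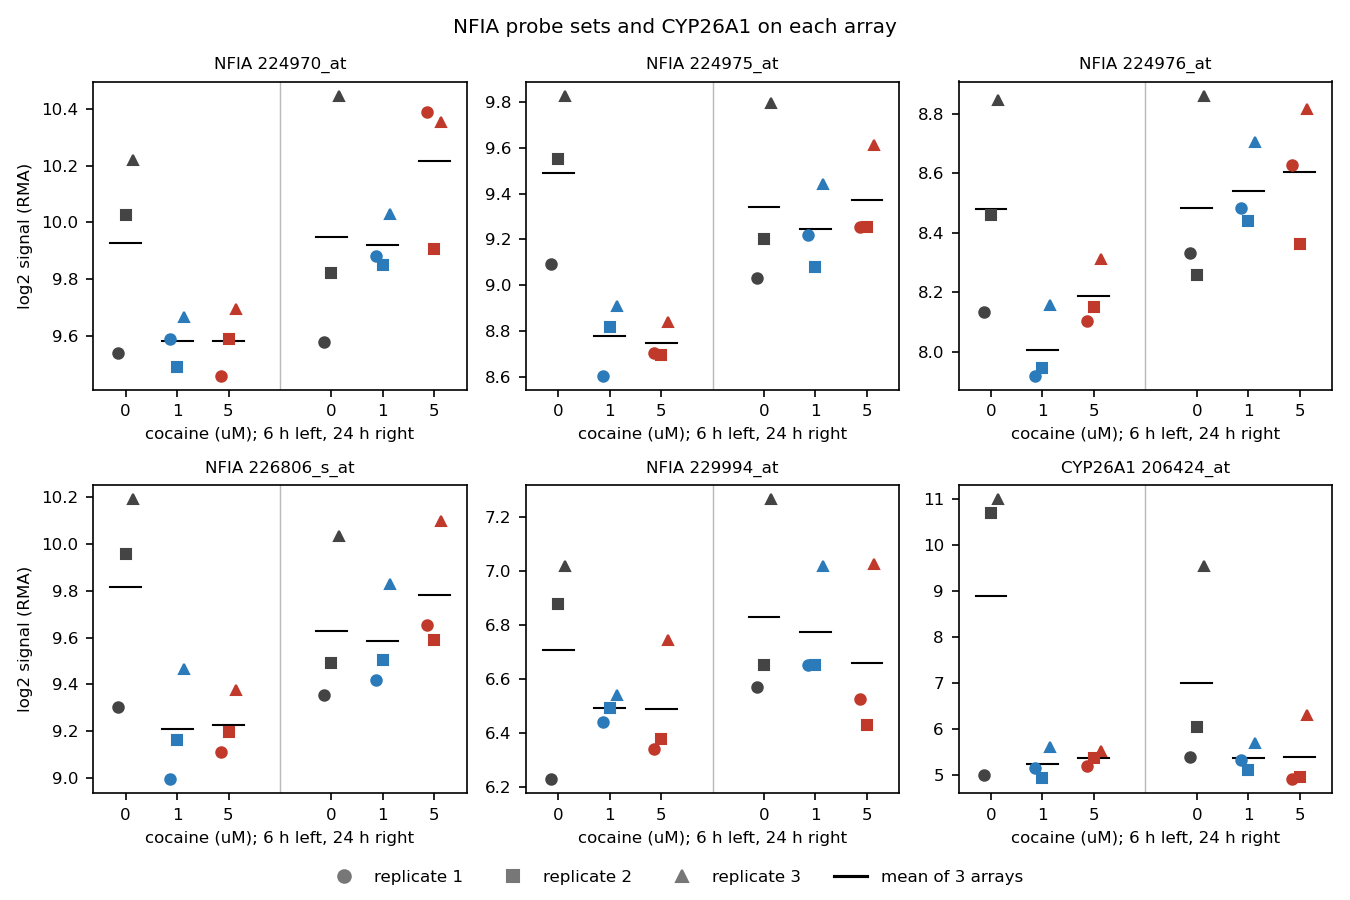
Log2 signal (RMA) of the 5 NFIA probe sets tested and of CYP26A1 on each array, by cocaine dose in μM, with 6 h in the left part and 24 h in the right part of a panel. Scales differ between panels. Symbols mark the replicate number and bars the mean of 3 arrays. At 6 h untreated arrays 2 and 3 are high in NFIA and in CYP26A1 (10.69 and 10.99), while untreated array 1 (5.01 in CYP26A1) is near the treated arrays.

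From 0 to 5 μM at 6 h, the contrast the family was chosen on, the log2 fold change of 224975_at was -0.74 (SE 0.168), and limma called 1 of the 17 probe sets, 224975_at itself, beside 2.98% of all probe sets tested. The other NFIA values were -0.59 in 226806_s_at, -0.35 in 224970_at, -0.29 in 224976_at and -0.22 in 229994_at. With the replicate number as a block, 6 of 17 were called, all lower, beside 18.6% of all probe sets, and these were 4 NFIA probe sets (all but 229994_at), NFIB 209290_s_at (-0.14) and NFIC 226895_at (-0.26). In 2 of the 17, 224975_at and 209290_s_at, the 3 arrays at 5 μM lay wholly outside the untreated range, beside 21.2% of all probe sets. Nothing is read from these counts. The remaining 10 probe sets lay between -0.07 in NFIB 213029_at and 0.18 in NFIC 206929_s_at. The median over the 17 was -0.05, and over all probe sets -0.02. Without untreated arrays 2 and 3 the change of 224975_at was -0.34. That of 226806_s_at was then -0.08, and those of 224970_at and 224976_at, 0.04 and 0.05, had changed sign. Leaving out untreated array 2 or 3 alone gave -0.71 and -0.57 for 224975_at, and leaving out untreated array 1 gave -0.94.

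The comparison of 1 with 0 μM at 6 h asks whether the lower dose changed the family, and it uses the same untreated arrays as the contrast above, so it is no independent view of them. None of the 17 probe sets passed an adjusted p under 0.1 in limma, and of all 22455 tested 0% did, while 6 of the 17 and 3222 of all had an unadjusted p under 0.05. NFIA 224975_at had the smallest adjusted p, with a log2 fold change of -0.71 (SE 0.168, 95% interval -1.09 to -0.33, adjusted p = 0.172). The changes of 226806_s_at (-0.61), 224976_at (-0.47), 224970_at (-0.35) and 229994_at (-0.22) had the same sign, with adjusted p of 0.267 to 0.646. The labels number the replicates alike at each dose, and arrays with the same number varied alike. With the number as a block 6 of 17 were called, 1 higher and 5 lower, against 12.5% of all probe sets. NFIA fell there in 3 probe sets, 224975_at (adjusted p = 0.0418), 226806_s_at (adjusted p = 0.0499) and 224976_at (adjusted p = 0.0516), and 224970_at was at 0.115. Without untreated arrays 2 and 3, 224975_at was at -0.31, 226806_s_at at -0.10, 224976_at at -0.13 and 224970_at at 0.04. The part of retinoic acid response and RNA integrity in these NFIA values was not tested.

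**Figure D2:**
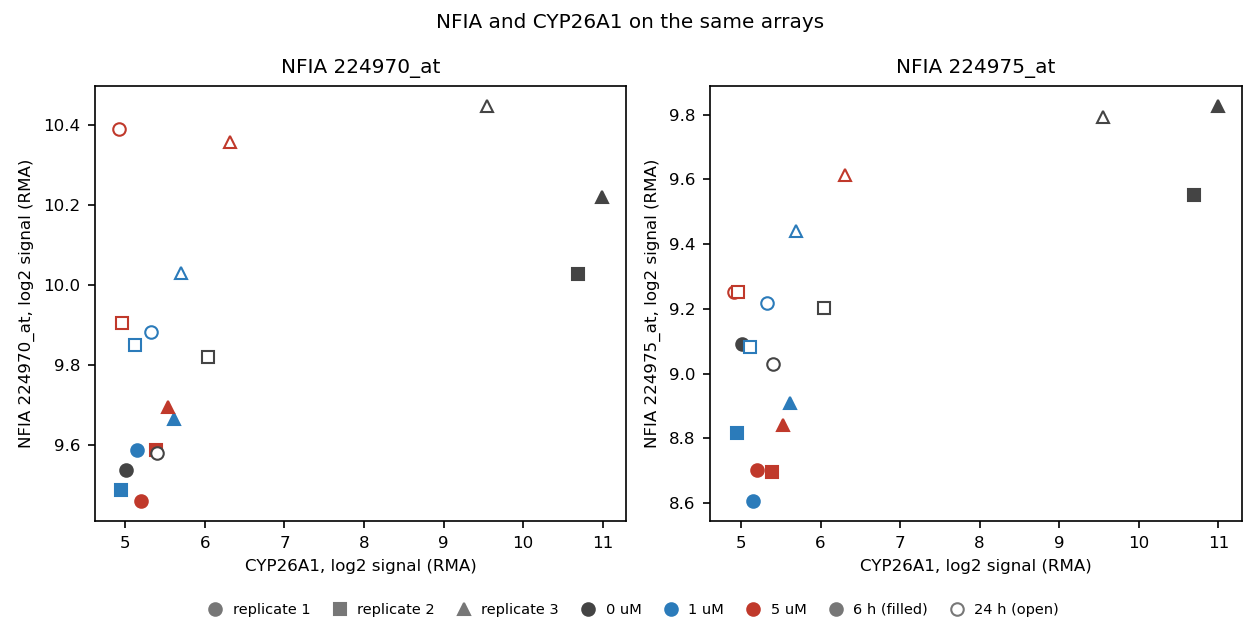
Log2 signal (RMA) of NFIA 224970_at and 224975_at against that of CYP26A1 on the 18 arrays, with colour for dose, symbol for replicate number, filled for 6 h and open for 24 h. The times were normalized separately, so filled and open symbols are to be read apart. The 3 arrays with CYP26A1 above 9 are untreated arrays 2 and 3 at 6 h and untreated array 3 at 24 h. Within their time they are the highest in both NFIA probe sets. At 24 h 5 μM arrays 1 and 3 are also high in 224970_at (10.39 and 10.36) with CYP26A1 at 4.92 and 6.31. In 224975_at 5 μM array 3 of 24 h is at 9.61.

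NFIB, the member tied to neuronal maturation and midline glia, had smaller differences at 6 h. Its brightest probe set, 213029_at, had log2 signals of 12.23, 12.25 and 12.41 in untreated cells, 12.14, 11.99 and 12.14 at 1 μM, and 12.27, 12.17 and 12.23 at 5 μM. The 1 μM arrays lay below the untreated ones, and the 5 μM arrays overlapped them. Probe set 209290_s_at, described because its arrays did not overlap, had 12.04, 12.05 and 12.16 untreated, 11.90, 11.85 and 11.92 at 1 μM and 11.96, 11.91 and 11.95 at 5 μM. The change from 0 to 1 μM was -0.21 (SE 0.0694, adjusted p = 0.264) in 213029_at and -0.19 (SE 0.0529, adjusted p = 0.192) in 209290_s_at. Both passed with the replicate block, at adjusted p of 0.0765 and 0.0608. These and NFIA 224975_at were the 3 of 17 probe sets whose 1 μM arrays lay outside the untreated range, where 17.4% of all probe sets did. The other 4 NFIB probe sets had values of -0.04 to 0.01. Without untreated arrays 2 and 3 the changes to 1 μM were -0.14 in 213029_at and -0.15 in 209290_s_at.

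NFIC, a widely expressed member, gave opposite signs in its probe sets. The brightest, 226895_at, had log2 signals of 9.91, 10.36 and 10.31 in untreated cells at 6 h, 9.91, 9.96 and 10.00 at 1 μM, and 9.89, 9.93 and 9.98 at 5 μM. As in NFIA, untreated array 1 lay with the treated arrays and arrays 2 and 3 above them. Its change from 0 to 1 μM was -0.24 (SE 0.109, adjusted p = 0.361), and 0.04 without untreated arrays 2 and 3. Probe set 206929_s_at had 6.63, 6.67 and 6.94 untreated, 7.10, 6.94 and 6.98 at 1 μM and 6.94, 6.84 and 7.00 at 5 μM, so that its untreated arrays 1 and 2 were the lowest of the 9. Its change from 0 to 1 μM was 0.26 (SE 0.0908, adjusted p = 0.276, and 0.0959 with the replicate block), and 0.37 without untreated arrays 2 and 3. The values of 213298_at and 226377_at were 0.18 and -0.07.

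NFIX, the member known from muscle and neural stem cells, varied little. Probe set 227400_at had log2 signals of 7.98, 8.05 and 7.96 in untreated cells, 7.97, 7.98 and 7.79 at 1 μM and 8.0, 7.93 and 7.96 at 5 μM, and the 3 groups overlapped. Its change from 0 to 1 μM was -0.08, with a 95% interval of -0.23 to 0.06, and that of 228278_at was 0.08, with an interval of -0.08 to 0.24. These changes were -0.06 and 0.05 without untreated arrays 2 and 3.

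**Figure D3:**
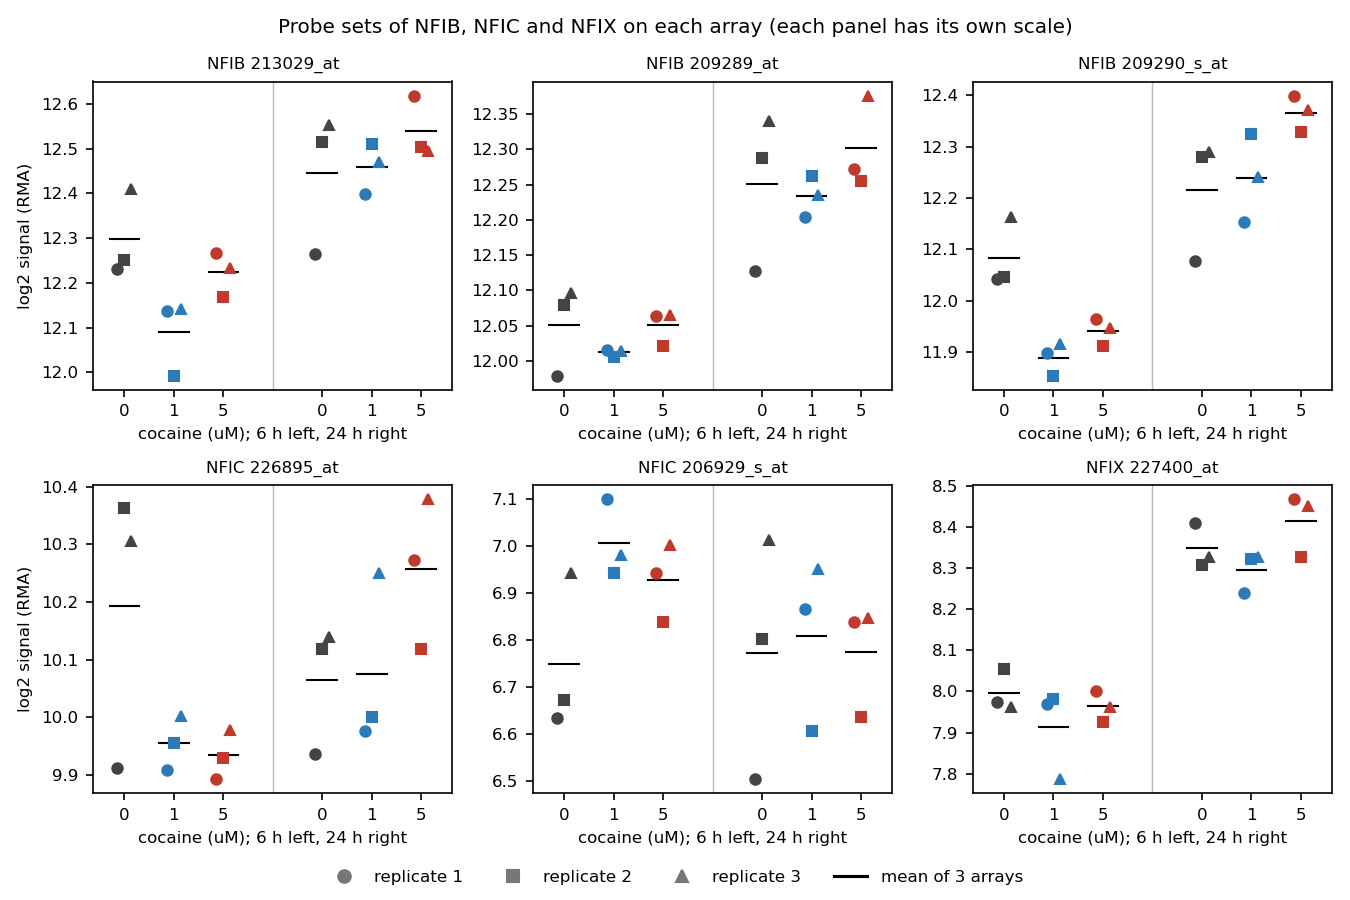
Log2 signal (RMA) of 3 NFIB, 2 NFIC and 1 NFIX probe sets on each array, by cocaine dose in μM, with 6 h in the left part and 24 h in the right part. Symbols mark the replicate number, bars the mean of 3 arrays, and each panel has its own scale. NFIB 209290_s_at lies lower in treated than in untreated cells at 6 h and highest at 5 μM at 24 h, and NFIC 226895_at has 2 high untreated arrays at 6 h (10.36 and 10.31).

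Between 1 and 5 μM at 6 h no member passed. The means of this comparison leave out the untreated arrays, but its spread was estimated over all 9 arrays of 6 h. The intervals and p-values thus depend in part on the spread of the untreated arrays. In 224975_at the SD was 0.37 in untreated cells, 0.16 at 1 μM and 0.08 at 5 μM. None of 17 probe sets was called in limma, with 0% called among all, and 0 of 17 had an unadjusted p under 0.05, against 1448 of 22455. NFIA 224975_at differed by -0.03 (95% interval -0.41 to 0.35) and 224970_at by 0.00 (interval -0.35 to 0.36). The values of all 17 lay between -0.11 in NFIX 228278_at and 0.18 in NFIA 224976_at.

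At 24 h, on arrays that had no part in the choice of the family, no member passed. In 224970_at the log2 signals were 9.58, 9.82 and 10.45 in untreated cells, 9.88, 9.85 and 10.03 at 1 μM, and 10.39, 9.91 and 10.36 at 5 μM. In 224975_at they were 9.03, 9.20 and 9.79 untreated, 9.22, 9.08 and 9.44 at 1 μM, and 9.25, 9.25 and 9.61 at 5 μM. The groups overlapped in both, and array 3 was the highest of its dose except in 224970_at at 5 μM, where array 1 was. From 0 to 5 μM the change of 224975_at was 0.03, with a 95% interval of -0.41 to 0.47. That of 224970_at was 0.27 (interval -0.22 to 0.75, adjusted p = 0.849), and 0.52 without untreated array 3. Beside it, the 3′ to 5′ log2 ratio of ACTB at 24 h was 0.926, 0.686 and 1.03 at 5 μM and 0.420 to 0.655 on the other 6 arrays, and its part in the 224970_at values was not tested.

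No probe set of the other members was called at 24 h. NFIB 213029_at had log2 signals of 12.26, 12.52 and 12.55 untreated, 12.40, 12.51 and 12.47 at 1 μM and 12.62, 12.50 and 12.50 at 5 μM, with a change to 5 μM of 0.09 (interval -0.09 to 0.28). NFIB 209290_s_at had 12.08, 12.28 and 12.29 untreated, 12.15, 12.33 and 12.24 at 1 μM and 12.40, 12.33 and 12.37 at 5 μM. Its 5 μM arrays lay just above the untreated ones, by 0.15 in the mean (adjusted p = 0.713). NFIC 226895_at had 9.94, 10.12 and 10.14 untreated, 9.98, 10.00 and 10.25 at 1 μM and 10.27, 10.12 and 10.38 at 5 μM, with a change to 5 μM of 0.19 (interval -0.04 to 0.42). The change to 5 μM was 0.21 in NFIC 226377_at (interval -0.14 to 0.57) and 0.21 in 213298_at (interval -0.05 to 0.48). In NFIC 206929_s_at it was 0.00096. The part of the ACTB ratio in the NFIC values was not tested. NFIX 227400_at had 8.41, 8.31 and 8.33 untreated, 8.24, 8.32 and 8.33 at 1 μM and 8.47, 8.33 and 8.45 at 5 μM, with a change of 0.07 (interval -0.07 to 0.21). Of these, only NFIB 209290_s_at and NFIC 213298_at had groups that did not overlap between 0 and 5 μM.

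Counted over the family at 24 h, 0 of 18 probe sets were called by limma in each comparison, and 0 of 18 had an unadjusted p under 0.05. For 1 against 0 μM, 0% of all probe sets were called and 819 of 24307 had an unadjusted p under 0.05. For 5 against 0 μM 0.0123% were called, with 1751 under 0.05, and for 5 against 1 μM 0.00823%, with 1488 under 0.05. The replicate block called none of the 18 either. No 1 μM probe set lay wholly outside the untreated range, where 7.2% of all did, and at 5 μM NFIB 209290_s_at and NFIC 213298_at (0.21) did, 2 of 18 against 10.4% of all. The median change of the 18 was 0.02 at 1 μM and 0.08 at 5 μM, beside 0.02 and -0.00024 over all probe sets. The changes at 1 μM ran from -0.10 in NFIA 224975_at to 0.40 in NFIB 211466_at (interval -0.28 to 1.08), the dimmest probe set tested. Those at 5 μM ran from -0.17 in NFIA 229994_at to 0.27 in NFIA 224970_at.

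**Figure D4:**
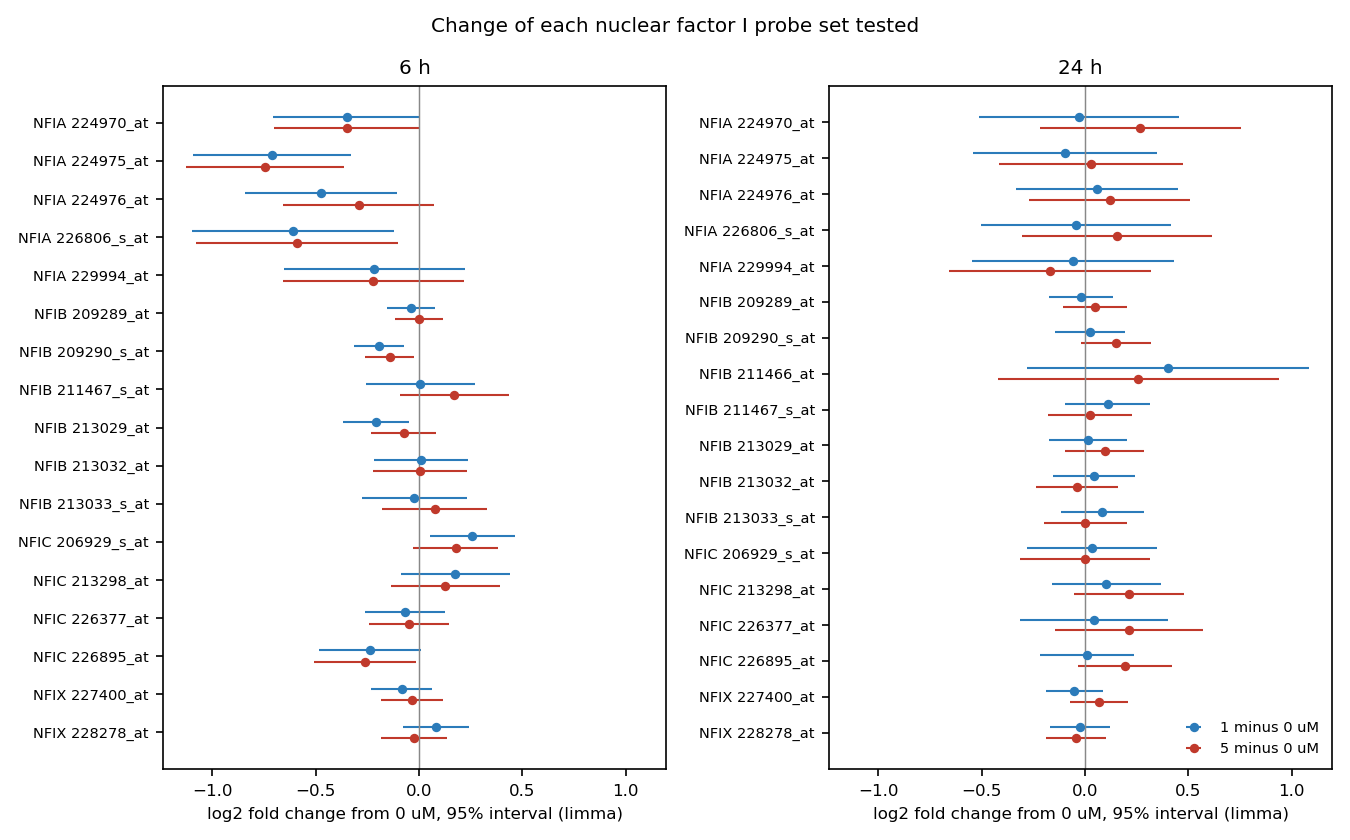
Log2 fold change of every nuclear factor I probe set tested, from 0 to 1 μM (blue) and from 0 to 5 μM (red), at 6 h and 24 h, with 95% intervals from limma. At 6 h NFIA 224975_at (-0.71 at 1 μM and -0.74 at 5 μM) and 226806_s_at (-0.61 and -0.59) lie furthest to the left, and at 24 h every interval includes 0.

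The probe sets of each gene were also compared with each other. Each was set against the brightest probe set of its gene, as the log2 difference on the same array, with exact 2-sided permutation tests of 3 arrays against 3, whose smallest p is 0.1. Over 41 such tests (1 against 0 μM at 6 h and both doses at 24 h) the smallest adjusted p was 0.456, and with a smallest p of 0.1 none could pass. From 0 to 1 μM at 6 h, 6 of 13 differences did not overlap between the doses, where 22.9% of 9491 such differences over all genes with several probe sets did not. In NFIA the difference of 224975_at from 224970_at went from -0.44 ± 0.0425 in untreated cells to -0.80 ± 0.160 at 1 μM (SD, n = 3). In NFIC that of 206929_s_at from 226895_at went from -3.44 ± 0.218 to -2.95 ± 0.120. The other 4 were NFIA 229994_at (by 0.13), NFIB 209289_at (by 0.17) and 213032_at (by 0.22), and NFIX 228278_at (by 0.17). At 24 h 0 of 14 differences lay apart at 1 μM, where 10.2% of 10490 did over all genes, and 3 of 14 at 5 μM, where 14.8% did. The 3 were those of NFIA 229994_at (by -0.44), NFIB 213032_at (by -0.13) and NFIC 206929_s_at (by -0.19). Which transcripts each probe set reads is not annotated in the sources used here.

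Across the 18 arrays, with each probe set centred on its mean within each time, the NFIA probe sets followed each other. Their 10 pairs had correlations of 0.734 to 0.958 (median 0.850), the 15 NFIB pairs of 0.0404 to 0.899 (median 0.518), the 6 NFIC pairs of 0.00812 to 0.674 (median 0.391), and the NFIX pair was at -0.0786. Between genes, the median was 0.498 for NFIA with NFIC (20 pairs), 0.428 for NFIA with NFIB (30 pairs) and 0.0520 for NFIA with NFIX (10 pairs). These points share their arrays, and the correlations describe the arrays only.

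The probe sets most like the members were looked for among the 22357 others kept at both times, less those with several symbols or of the member's own gene. For NFIA 224975_at they were those of TRAK1, a motor adaptor for mitochondria (r = 0.970), SH3BP4, an endocytic adaptor (0.957), and ITGA1, an integrin subunit (0.951). TRAK1 had log2 signals of 9.91, 10.24 and 10.33 in untreated cells at 6 h and of 9.72 to 9.89 in treated cells. For NFIA 224970_at they were CUX1, a homeobox transcription factor (0.926), TNRC6B, a protein of microRNA silencing (0.915), and NUMA1, a protein of the spindle pole (0.914). NFIC 226895_at was also most like CUX1 (0.933), followed by the netrin receptor gene UNC5B (0.932) and MAP3K9 (0.899). For NFIB 213029_at the nearest were NAV1, a neuron navigator (0.907), the RNA-binding CELF1 (0.866) and RYBP (0.865), and for NFIX 227400_at the nearest were ERC1 (0.738), CEP164 (0.724) and RUFY3 (0.703).

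Genes known as targets of nuclear factor I, or as its regulators and partners, were counted from lists. Of 18 targets, 8 were measured at 6 h and 9 at 24 h, and the glial targets GFAP, AQP4 and SLC1A3 were not above the signal threshold on any array. From 0 to 5 μM at 6 h 1 of the 8 was called higher and 0 lower, namely BBX, an HMG-box transcription factor (0.31 in 223134_at and 0.32 in 213016_at), where 2.98% of all probe sets were called. A gene counts as called when any of its probe sets is, while the shares here are of probe sets, so these are unlike counts. BBX has 6 of the 20 target probe sets. The other 4 BBX probe sets had 0.04 to 0.25 and were not called. The values of 223134_at and 213016_at were 0.33 and 0.19 without untreated arrays 2 and 3. With the replicate block, under which 18.6% of all were called, the ETS factor ETV1 was called in 1 of 4 probe sets (0.26 in 217061_s_at). Its other values were 0.36 in 206501_x_at, 0.22 in 217053_x_at and -0.19 in 221911_at, and without untreated arrays 2 and 3 that of 217061_s_at was 0.10. This is the contrast the family was chosen on, and these counts are a description. The median over the 20 target probe sets was 0.07, beside -0.02 over all. From 0 to 1 μM at 6 h 0 of the 8 targets passed, with a median of -0.04 beside -0.01 over all, and BBX alone passed with the block, under which 12.5% of all probe sets did. It passed in 3 of its 6 probe sets, 223134_at (0.23, adjusted p = 0.0495), 232008_s_at (0.31, adjusted p = 0.0507) and 213016_at (0.24, adjusted p = 0.0752). They were at 0.25, 0.35 and 0.10 without untreated arrays 2 and 3.

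Of 11 regulators and partners, 6 were measured at 6 h and 7 at 24 h, and none passed in any comparison. The replicate block at 6 h, with 12.5% of all probe sets called at 1 μM and 18.6% at 5 μM, called some probe sets of 3 of these genes. SKI, a corepressor, was higher at 1 μM in 1 of 3 probe sets (0.27 in 204270_at, adjusted p = 0.0980), while 229265_at was at 0.10 (adjusted p = 0.173) and 213755_s_at at -0.0025 (adjusted p = 0.986). RBPJ, the DNA-binding partner of Notch, was higher at 1 μM in 211974_x_at (0.18, adjusted p = 0.0794), and its other probe set, 207785_s_at, was at -0.13 (adjusted p = 0.254). STAT3, which acts with nuclear factor I on astrocyte genes, was lower at 1 μM in 2 of 3 probe sets, 208991_at (-0.27, adjusted p = 0.0590) and 208992_s_at (-0.21, adjusted p = 0.0687), and 225289_at was at -0.16 (adjusted p = 0.202). Without untreated arrays 2 and 3 the 1 μM values were 0.30 in SKI 204270_at, 0.12 in RBPJ 211974_x_at, and -0.79 and -0.87 in STAT3 208991_at and 208992_s_at. From 0 to 5 μM, as a description, the block called SKI 204270_at (0.30) but not 229265_at (0.12) or 213755_s_at (-0.09), and STAT3 208991_at (-0.24) and 225289_at (-0.31) but not 208992_s_at (-0.01). At 24 h no gene of either list passed, with or without the block. The smallest unadjusted p there belonged, from 0 to 5 μM, to SKI 204270_at (-0.46, adjusted p = 0.566), BBX 232008_s_at (-0.18, adjusted p = 0.642) and the contactin gene CNTN2 (0.18 in 230045_at, adjusted p = 0.713). From 0 to 1 μM they belonged to ETV1 206501_x_at (0.30, adjusted p = 1.00) and SKI 213755_s_at (-0.26, adjusted p = 1.00).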

How the data were processed

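RNA of SH-SY5Y cells was measured on 18 Affymetrix U133 Plus 2.0 arrays, 3 for each dose and time. The authors deposited log2 signals made with RMA in the affy library (background correction, normalization and median polish), with the 6 h and 24 h arrays processed separately, so levels were compared only within a time. RMA equalizes the arrays, which hides a shift shared by all genes. The version of RMA is not given in the sources used here. The deposited table was not filtered, and the array medians were 4.96 to 5.01 at 6 h and 5.30 to 5.35 at 24 h. No 2 arrays held identical values.

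Here 62 control probe sets were left out, probe sets were named from the annotation of the array (single symbols for 41097, several for 1801, none for 11777), and those with a mean above log2(40) over the 9 arrays of a time and at least 1 symbol were kept. Within each time, every pair of doses was tested in limma 3.58.1 under R 4.3.3 (lmFit and eBayes on the 9 arrays, Benjamini-Hochberg over all kept probe sets, adjusted p under 0.1), with the package data.table, version 1.17.8, and plotted with matplotlib 3.10.9 in Python 3.11.15. The scripts were tested on simulated data with independent noise, equal in spread at every dose and without likeness of arrays sharing a number. That test does not cover the uneven spread and the likeness of same-numbered arrays in these data. The arrays are pools of 3 dishes, and p-values measure the spread between these arrays. Their number limits the precision.

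Every member probe set is listed. Values for each array are given for the brightest probe set of each gene, for those called in any comparison, and for those whose arrays at 1 dose lay outside the untreated range by over 0.3 in the mean. Those of other probe sets were added after their values were seen. The genes most like a member were the 3 with the highest Pearson correlation. The members and the gene lists were chosen with earlier results of these data known.

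The replicate numbers of the labels pair the arrays: the deviations from the group means correlated at 0.377 to 0.768 (6 h) and 0.424 to 0.733 (24 h) for arrays with the same number, in 9 pairs each, and at -0.632 to 0.0711 and -0.575 to 0.165 for other numbers, in 18 pairs each. Alternatives to the fit were this replicate block, a stricter or no signal filter, keeping unnamed probe sets, fitting the 6 compared or all 18 arrays, eBayes with a trend, array weights, renewed quantile normalization, median centring, a threshold of 0.05 and dropping single arrays.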

Additional observations from a re-analysis of the deposited data

Results flagged for a closer look

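NFIB probe set 209290_s_at changed by -0.14 from 0 to 5 μM at 6 h and by 0.15 at 24 h. At each time the 3 arrays at 5 μM lay wholly on 1 side of the 3 untreated arrays, below them at 6 h and above them at 24 h. In either direction, 21.2% of all probe sets did so at 6 h and 10.4% at 24 h. Without untreated arrays 2 and 3 the 6 h change was -0.10. The 3′ to 5′ log2 ratio of ACTB at 6 h was 0.493 to 0.539 at 5 μM and 0.548 to 1.12 in untreated cells. At 24 h it was 0.686 to 1.03 at 5 μM and 0.488 to 0.654 in untreated cells. Its part in these values was not tested. The difference between the times was not tested, because the 6 h contrast chose the family and the times were normalized separately. In groups of 3 arrays no single array was tested as an outlier.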

How the results depend on the processing

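From 0 to 1 μM at 6 h, where limma called 0 of 17 members, 6 were called with the replicate block, 6 with array weights and 1 with all 18 arrays, and leaving out 1 array gave 0 to 5 (5 without untreated array 1). Of all 22455 probe sets, 2818 were called with the replicate block, 1009 with array weights, 541 with all 18 arrays and 962 without untreated array 1. From 0 to 5 μM at 6 h, where 1 was called, the replicate block gave 6, array weights 4, only the 6 arrays compared 0 and an adjusted p under 0.05 gave 0. Of all 22455 probe sets, the main fit called 670, the replicate block 4184 and the fit of only the 6 arrays compared 131. For the array weights and the fits without 1 array the totals of this contrast are not given here, and nothing is read from those member counts. Leaving out 1 array gave 0 to 6 there: 6 without untreated array 1, 1 without 1 μM array 1, and 0 without any other array. Without untreated arrays 2 and 3 signs turned for NFIA 224970_at (0.0421 at 1 μM, 0.0427 at 5 μM), NFIA 224976_at (0.0539 at 5 μM) and NFIC 226895_at (0.0439 at 1 μM, 0.0219 at 5 μM). The replicate block changed no call of the other comparisons, and the 4 others kept 0 member calls under every alternative.

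Small changes turned sign. From 0 to 1 μM at 24 h, array weights gave 0.0117 in NFIA 224970_at, -0.0317 in NFIB 213029_at and -0.0510 in NFIC 226895_at, and quantile normalization -0.000712 in NFIC 226895_at. Leaving out 1 array gave -0.214 to 0.221 in NFIA 224970_at, -0.252 to 0.130 in NFIA 224975_at, -0.0751 to 0.0696 in NFIB 213029_at and -0.0765 to 0.0606 in NFIC 226895_at. From 0 to 5 μM at 24 h it gave -0.126 to 0.256 in NFIA 224975_at. From 1 to 5 μM at 6 h it gave -0.0569 to 0.0614 in NFIA 224970_at, -0.117 to 0.0358 in NFIA 224975_at, -0.0452 to 0.00161 in NFIC 226895_at and -0.0122 to 0.0849 in NFIX 227400_at. The cause of these changes was not tested. A run that left out the 24 h arrays numbered 3 was dropped, because they had been picked on NFIA, and it made no member call.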
